A study of Drosophila melanogaster with 3 samples.

Results

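The regions described here are the Myc peaks that lie on U, a collection of Drosophila melanogaster scaffolds that FlyBase release 5 does not place on a chromosome. They were chosen by the name of the sequence alone (U, and not the larger collection Uextra), and 706 of the 9897 peaks of the list met that rule (7.13%, exact 95% interval 6.63 to 7.66%, counting error only). Chromatin immunoprecipitation followed by sequencing (ChIP-seq) was carried out for Myc, encoded by dm, in 2 ChIP samples and 1 input sample, all from Kc167, an established embryo-derived line labelled female, late embryonic in stage and se/e in genotype. The ChIP samples shared 1 rabbit polyclonal antibody, and all samples shared the line and its genotype. The deposited measurement is 1 list of peaks with 1 score per peak from the authors' peak caller, so no peak has a value per sample, the depth of each sample is unknown and no replicate error can be given.

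Myc binds DNA as a partner of Max and is known in flies for driving cell growth, including the transcription of ribosomal RNA and of genes for ribosome assembly. Unplaced scaffolds of the fly genome hold much of what could not be ordered along the arms: simple satellites, pieces of the ribosomal DNA arrays with the R1 and R2 elements that insert into them, and remnants or full copies of transposons such as LTR retrotransposons. Many copies of such repeats are alike, and a short read from one of them can map to several places. The coordinate of U runs on from scaffold to scaffold, so a position on it is not a position on a chromosome. No peak was matched to a repeat here, because no release 5 sequence was used.

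U had no single type of Myc peak: its first 6 Mb held sparse peaks, some of them very broad, and its later part held dense peaks of moderate width and higher median score. The first 6 Mb carried 148 peaks, or 24.7 per Mb. Their median width was 346 bp and their median score 15.1. The 7th Mb carried 67 peaks, for which the medians were 402 bp and 19.0. The 8th and 9th Mb together carried 344 peaks, or 172 per Mb, and medians of 998 bp for width and 28.3 for score. From 9 Mb to the end of the last peak there were 147 peaks, or 142 per Mb, and the medians were 519 bp and 26.6. High scores followed another order: 17 of the 148 peaks of the first 6 Mb scored 50 or more (11.5%), as did 5.97% in the 7th Mb, 6.40% in the 8th and 9th and 10.2% from 9 Mb on. The 6 highest scores of U all lay in the first 6 Mb. The 8th and 9th Mb held 48.7% of the peaks of U and 58.5% of the bases that peaks covered on U.

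**Figure D1:**
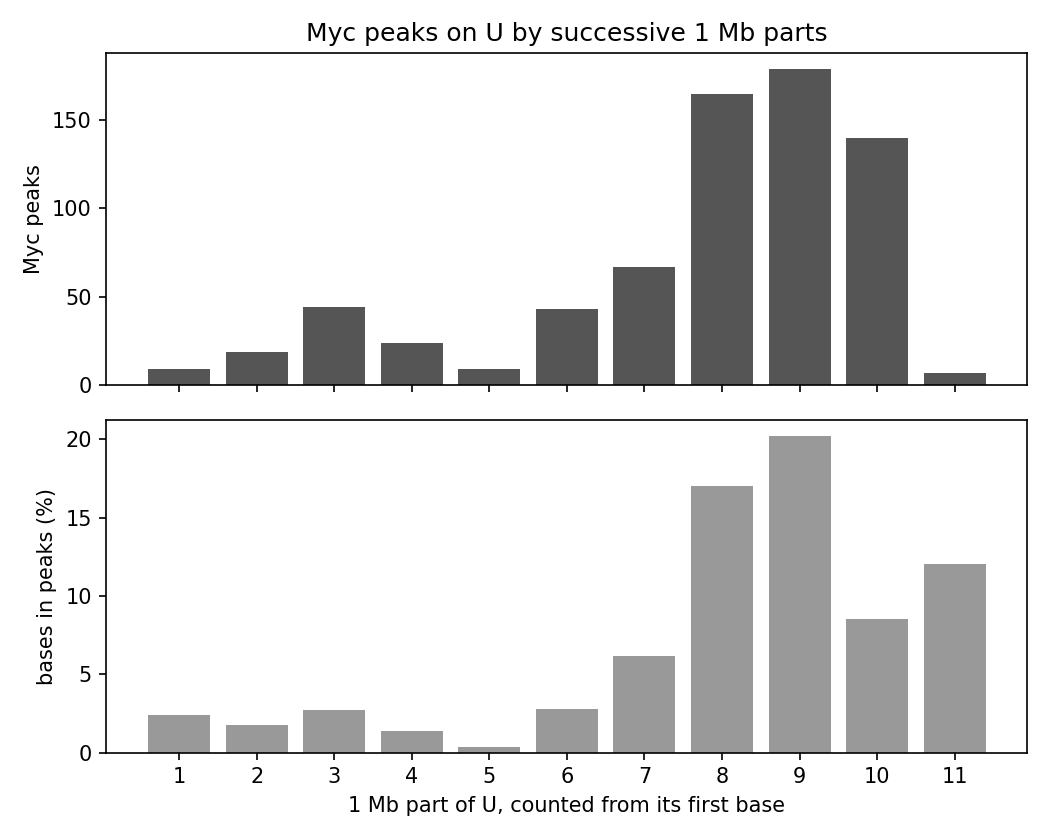
Number of Myc peaks (upper bars) and percent of bases inside peaks (lower bars) in successive 1 Mb parts of U, counted from its first base; part 11 ends with the last peak and is 33244 bp long. Parts 8 and 9 stand out with 165 and 179 peaks and 17.0% and 20.2% of bases in peaks, and parts 1 and 5 have 9 peaks each.

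By 1 Mb parts, the count of peaks was 9, 19, 44, 24, 9 and 43 in the first 6, then 67, 165, 179 and 140 in the next 4. The 3 densest parts held 68.6% of the peaks of U. Covered bases were at 0.338% in the sparsest, the 5th part, which had no peak wider than 821 bp and no score above 22.18. No peak lay in the first 276310 bp of U. Of 19 gaps of 100 kb or more between neighbouring peaks, 18 began in the first 6 Mb, and the longest, 444813 bp, ran from 445618 to 890430. The next longest, 311879 bp, ran from 2293954 to 2605832, and a peak with one of the 3 highest scores of U stood at each of its edges.

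Across the whole of U, widths had a median of 573.5 bp and quartiles of 308 and 1192.5 bp, and the narrowest width, 201 bp, was shared by 19 peaks. Peaks of 1000 bp or more numbered 224 on U (31.7%), against 172 of 8233 on Uextra (2.09%), 13 of 142 on the heterochromatin scaffolds (9.15%) and 169 of 810 on the chromosome arms (20.9%). Peaks of 4000 bp or more numbered 9 on U (1.27%), 0 on Uextra, 2 on the heterochromatin scaffolds (1.41%) and 64 on the arms (7.90%). U therefore had a larger share of moderately broad peaks than any of these 3 classes in this list. The share of very broad peaks was higher on the arms and, with only 2 such peaks, slightly higher on the heterochromatin scaffolds. These are counts within 1 list, set side by side without a test, since peaks are not replicates.

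The very broad and the moderately broad peaks lay in different stretches of U. Of the 9 peaks of 4000 bp or more, 8 were in the first 6 Mb, where they were 8 of 148. Of the 224 peaks of 1000 bp or more, 171 were in the 8th and 9th Mb, where they made up 49.7% of the peaks. In its median width (346 bp) and median score (15.1), the first 6 Mb of U was closer to the arms (403 bp and 14.0) than to Uextra (539 bp and 26.0). It was likewise closer to the heterochromatin scaffolds (321 bp and 13.4) than to Uextra, and in width closer to them than to the arms. From 9 Mb on, the medians of 519 bp and 26.6 were closer to those of Uextra.

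The widest peak of the whole list was on U, at 2190284 to 2199569, with a width of 9286 bp and a score of 76.52. It stood 4787 bp after its nearest neighbour on one side and 24214 bp before the next peak on the other. Only 1 other peak of the list was wider than 8000 bp, at 168365 to 177150 of 3RHet, with a width of 8786 bp and a score of 62.83. The widest peak of U was thus broader than any peak on the arms, where the maximum was 7016 bp.

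The other broad peaks of the first 4 Mb were several kilobases wide, as full LTR retrotransposons of flies are, and whether any of them covers one was not tested. The peak at 977369 to 984416 was 7048 bp wide with a score of 67.98, and it ranked 3rd in width in the whole list. The peak that opened U, at 276311 to 282460, was 6150 bp wide with a score of 70.42. Peaks at 1880963 to 1887063 and at 3411310 to 3417233 were 6101 and 5924 bp wide and scored 72.26 and 64.30. The peak at 1293337 to 1298197 was 4861 bp wide and scored 55.61. These 6 peaks of the first 4 Mb, the widest included, thus scored between 55.61 and 76.52, above the median of U at 23.8. Outside the first 4 Mb, the widest 10 of U held peaks at 8184157 to 8189554 (5398 bp, score 48.78), 6278067 to 6281954 (3888 bp, score 38.09) and 2 peaks near 5.30 Mb.

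From 6.75 Mb onward, the widths of the broader peaks followed a ceiling that came down step by step along U. The pattern was noticed after the list had been examined. The 90th percentile of width in successive quarter-Mb parts was 2980 bp from 6.75 to 7.0 Mb and then 2649, 2412, 2131 and 2001 bp up to 8.0 Mb. It was 1810, 1698, 1316 and 1184 bp in the 9th Mb, and 1122, 1048, 951 and 926 bp in the 10th. The last, short part had 915 bp. Over these 14 successive parts, no value was as high as the one before it. The number of peaks did not follow the same course: it was 15 in the first of these parts, 63 from 8.0 to 8.25 Mb and 54 from 9.75 to 10.0 Mb.

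**Figure D2:**
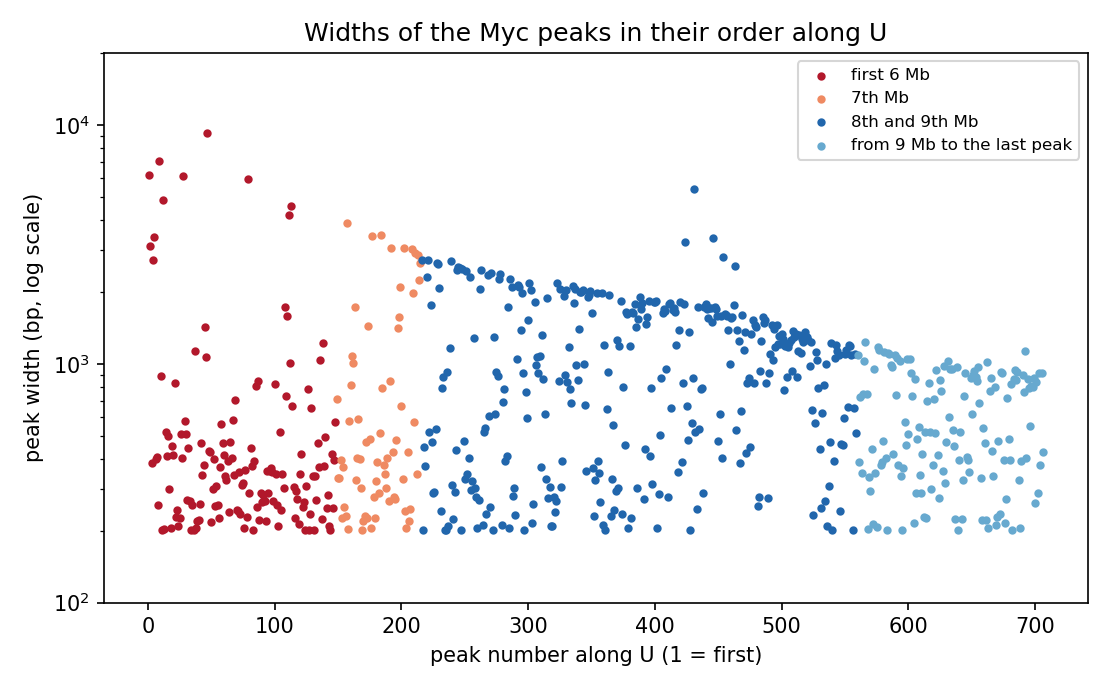
Width in bp (log scale) of each of the 706 Myc peaks of U against its order along U, coloured by the stretch it lies in. Single peaks of up to 9286 bp scatter above narrow ones in the first 6 Mb, and from about the 7th Mb on the upper edge of the points falls smoothly, with 5 points of the 9th Mb well above it.

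Many peaks lay on this edge rather than below it. Of the 506 peaks from 6.75 Mb on, 175 (34.6%) had a width between 0.85 and 1.15 times the 90th percentile of their quarter-Mb part, 325 were narrower and 6 were wider. The share near the edge was highest from 8.5 to 8.75 Mb, at 18 of 30 peaks. In the 8.0 to 8.5 Mb parts, 5 peaks rose well above it, with widths of 3247, 5398, 3373, 2799 and 2566 bp in their order along U. Peaks near the edge had a median score of 36.5 (range 15.66 to 88.75), against 21.1 for the narrower peaks of the same parts (range 7.11 to 77.9). The 2 ranges overlapped over most of their length, and width and score are outputs of the same peak caller.

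On Uextra, the 90th percentile of width was 1120 bp in the 2nd Mb, 904 bp in the 4th, 710 bp in the 12th and 498 bp in the 29th. From the 2nd Mb on it thus also came down along the coordinate, with small rises between some neighbouring parts. Scaffold ends are not part of the list, so no peak width could be set against the length of its scaffold.

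Most distances between the starts of peaks on the edge were close to whole multiples of a local unit. Neighbouring peaks of this class less than 9000 bp apart from start to start gave 5 or more distances in each of 6 quarter-Mb parts, 55 distances in all. In each part the unit was chosen, between 1 and 1.25 times the 90th percentile of width, to bring the distances closest to whole multiples. From 7.75 to 8.0 Mb, with a unit of 2195 bp, the 6 distances were 2232, 2261, 4356, 4396, 6568 and 8779 bp. From 8.0 to 8.25 Mb, with a unit of 1982 bp, 5 distances lay near 1 unit (1871 to 2106 bp), 7 near 2 units (3787 to 4226 bp), 4 near 3 units (5827 to 6094 bp) and 1 near 4 units (7980 bp).

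No distance between 2106 and 3787 bp was found in that part, nor between 4226 and 5827 bp. The units fitted in the other parts were 1796 bp from 8.25 to 8.5 Mb, 1537 bp from 8.5 to 8.75 Mb, 1340 bp from 8.75 to 9.0 Mb and 1133 bp from 9.75 to 10.0 Mb. Over the 6 parts, 49 of the 55 distances were within 0.1 unit of a whole number, and the mean deviation was largest, 0.0849 unit, from 8.25 to 8.5 Mb. From 9.75 to 10.0 Mb, 7 of the 11 distances were within 0.1 unit. Because each unit was fitted to the distances it describes, and 4 of the 6 parts had 8 distances or fewer with 1 more at 11, these values are a description of spacing and carry no test. Each unit was searched only in a window set by the widths of its own part, so its decrease along U follows from the search. Whether 1 constant unit would serve was not tested.

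**Figure D3:**
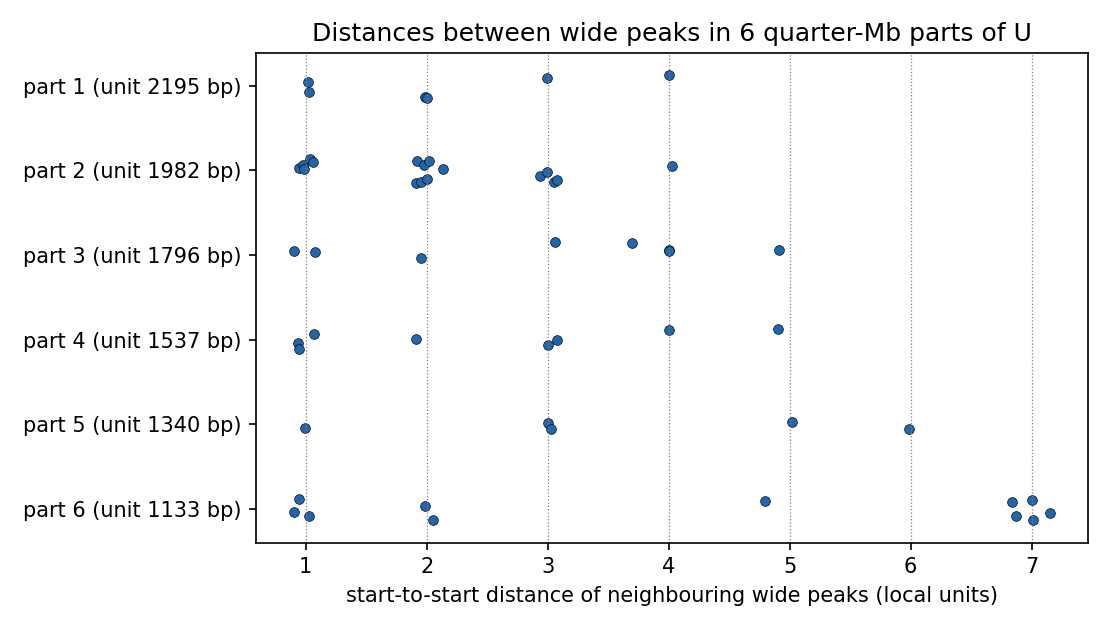
Start-to-start distances of neighbouring peaks near the local width edge, in units of the length fitted in each part, with dotted lines at whole numbers. Parts 1 to 5 cover 7.75 to 9.0 Mb of U in quarter-Mb steps and part 6 covers 9.75 to 10.0 Mb; points are shifted up or down at random within a row to keep them apart. The points of parts 1 and 2 fall close to 1, 2, 3 and 4 units, and those of part 6 scatter more widely.

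Dense runs were counted by a fixed rule. A run was taken as 8 or more peaks in which each gap to the next is under 3000 bp, and 4 runs on U met this rule, with 41 of the 706 peaks (5.81%). The number rests on the rule: there were 1 with joining under 1000 bp and 12 under 5000 bp, 27 with 5 or more peaks and 1 with 12 or more, and 0 when peaks scoring below the median of the list were left out. Joined in the same way, all peaks of U formed 340 loci, of which 169 were single peaks (49.7%), 144 held 2 to 4 peaks and 23 held 5 to 7. The median gap between neighbouring peaks was 2661 bp, the smallest gap was 50 bp, and 216 of the 705 gaps (30.6%) were under 500 bp. Of the 27 loci with 5 or more peaks, 20 began beyond 6 Mb. The first 6 Mb held only 21.0% of all peaks of U, so peaks in general also lay mostly beyond it.

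Run 1 was at 2016393 to 2024293, in the sparse part of U, with 10 peaks over 7901 bp. Its peaks were narrow, with a median of 268 bp and a widest of 1130 bp, and they scored low, between 7.42 and 21.13. Run 3, at 7716385 to 7722541, had 8 peaks over 6157 bp. Its first 7 peaks were 209 to 304 bp wide and scored 9.64 to 12.51, and its last was 2179 bp wide and scored 46.03. Run 1 thus had narrow peaks of low score with 1 wider one among them, and run 3 had 7 such peaks before 1 wide peak of higher score.

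Run 2, the longest, was at 7645991 to 7675949, with 14 peaks over 29959 bp that covered 53.1% of it. Its peaks had a median width of 1028.5 bp and scores between 11.66 and 49.48. Run 4, at 8203127 to 8223654, had 9 peaks over 20528 bp, with a median width of 1548 bp, scores between 9.25 and 57.34 and 53.0% of its bases covered. Wide and narrow peaks were mixed along both.

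A tandem period was looked for as the lag at which covered bases correlated best with themselves, from 1000 to 8000 bp and no further than 50% of the length of the run. Run 2 peaked at a lag of 4750 bp with an autocorrelation of 0.322, and 6.31 such lengths would fit in it. Run 4 peaked at 5720 bp with an autocorrelation of 0.462, and 3.59 lengths would fit. Run 1 and run 3 peaked at 3200 bp (autocorrelation 0.235) and 2400 bp (0.183), and neither could hold 3 such lengths.

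The lags of runs 1 to 3 depended on how the run was bounded. Widened by joining gaps under 5000 bp, run 2 covered 42408 bp with 17 peaks and had no highest point inside the lags searched: its value was highest at the lower limit of 1000 bp (0.281), and from 2000 bp upward at the upper limit (0.0736). Run 1 moved to 6710 bp and run 3 to 1040 bp when widened in the same way, and run 3 moved to the lower limit of 1000 bp when its bases were weighted by log10 score. Run 4 kept its lag when widened, at 5730 bp with 0.417, and 4.56 such lengths would fit. The widened run had 11 peaks, however, and 9 of these were the peaks of run 4, so a similar lag is no independent check. Whether a run crosses from scaffold to scaffold could not be seen from the list. Run 4 was not alone in this: other runs of U joined at 5000 bp also peaked inside the lags searched, while several peaked at a limit. The run at 8735340 to 8761926 peaked at 5700 bp with 0.310. That at 3411310 to 3430227 peaked at 1310 bp with 0.490, but at 2630 bp with 0.366 when lags started at 2000 bp. Joined by the same 5000 bp rule, the longest run of 2L, at 21450248 to 21543476, peaked at 5040 bp with 0.369 and could hold 18.5 lengths. The base of 2L is known for the tandem array of histone genes, but no gene was assigned to a peak here. The lag of run 4 was 2.89 times the unit of 1982 bp found from 8.0 to 8.25 Mb. The starts of its peaks of 1300 bp or more were 9443, 3787, 1938 and 3812 bp apart. Run 4 lies in that part and its peaks were among those to which the unit was fitted, so the 2 values are not independent.

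**Figure D4:**
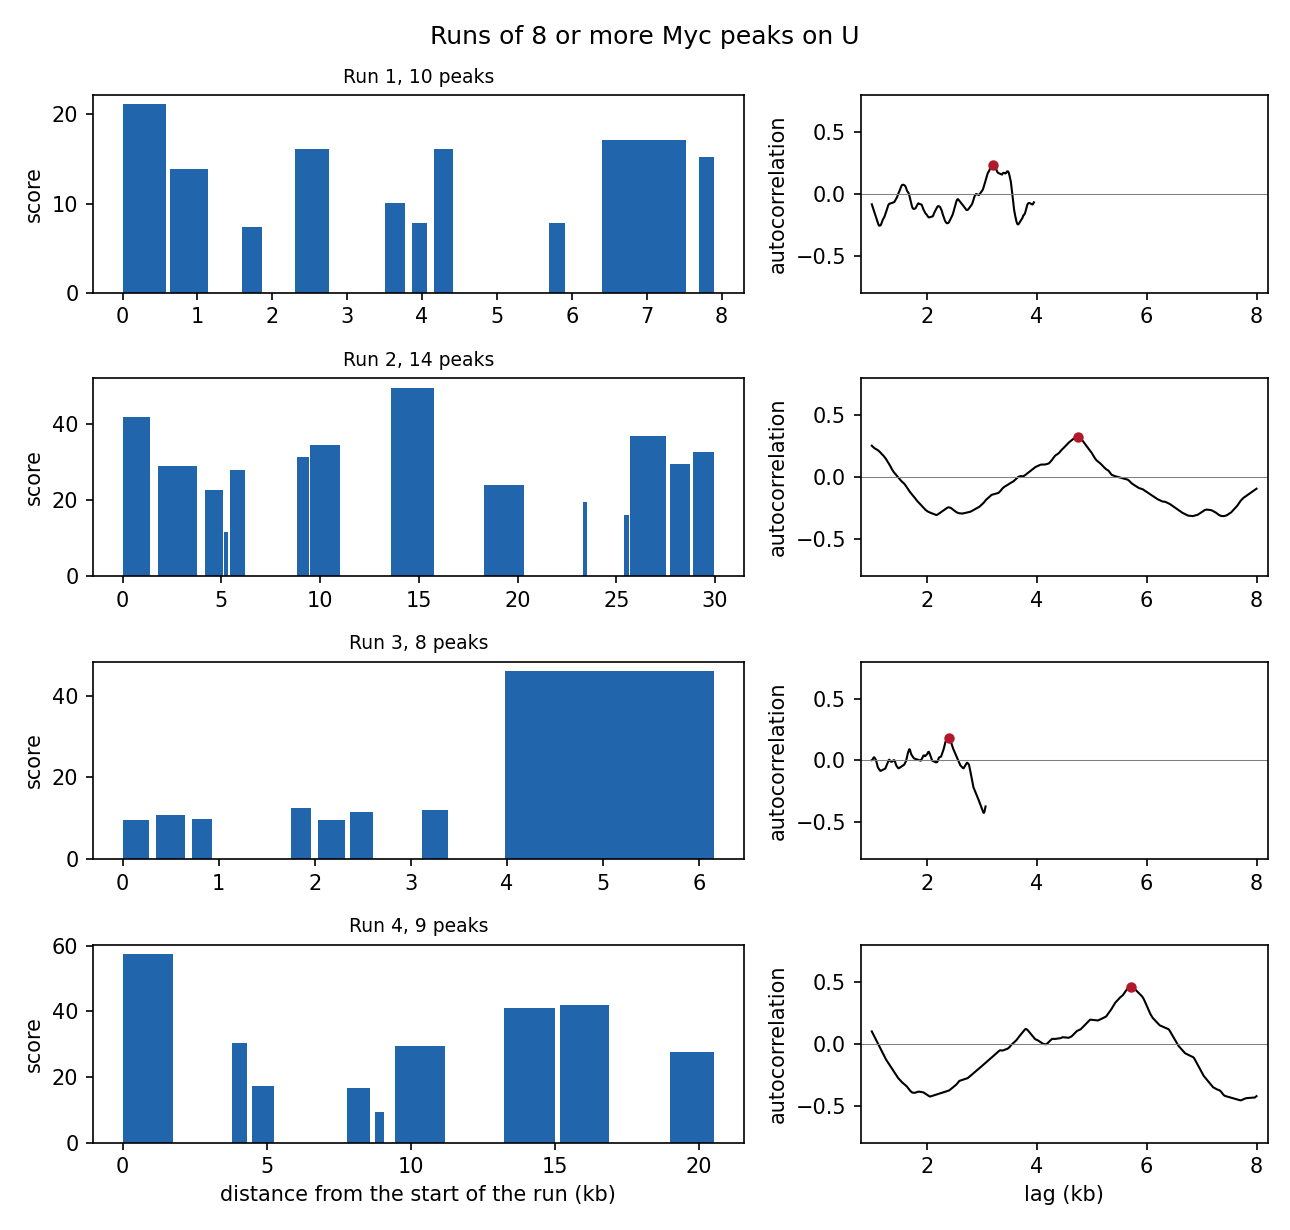
The 4 runs of 8 or more Myc peaks on U, with each peak drawn to scale by its distance from the start of the run in kb and its score (left), and the autocorrelation of covered bases against the lag in kb (right, highest value marked). Runs 2 and 4 have broad maxima at 4750 and 5720 bp, and the maxima of runs 1 and 3 are low, at 0.235 and 0.183.

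The highest-scoring stretch of U was a block of 6 peaks at 5288436 to 5303504. In order, they were 1733, 731, 1587, 4201, 1007 and 4570 bp wide. Their scores were 129.76, 25, 78.69, 85.59, 78.03 and 191.45, in the same order. Thus 5 of the 6 were high and the narrowest was close to the median of U, and the highest score stood in the last and widest peak. The gaps between them were 52 to 482 bp, and peaks covered 13829 of the 15069 bp (91.8%). Whether the block is 1 enriched region cut into pieces by the caller cannot be told from the list.

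**Figure D5:**
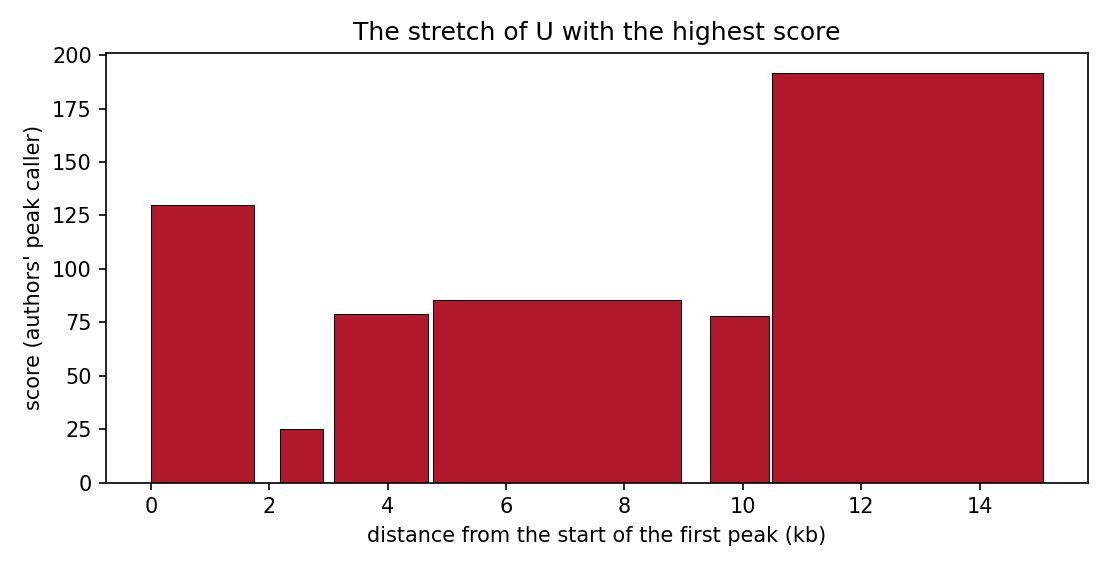
The 6 Myc peaks of the highest-scoring stretch of U, each drawn to scale by its distance in kb from the start of the first and with the authors' score as its height. The last peak, 4570 bp wide, scores 191.45, the first scores 129.76, and the second is the lowest at 25.

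The block was isolated. The peak before it ended 52898 bp upstream, was 301 bp wide and scored 12.94. The peak after it began 122202 bp downstream, was 665 bp wide and scored 48.9. Among the 10 loci of U, joined at gaps under 3000 bp, that spanned 10000 bp or more, the other 9 were covered to at most 74.3%. Such coverage was not particular to the block among shorter loci. Of the 37 loci of 6000 bp or more, 7 were covered to 90% or more, the block among them. Besides single peaks, these included the loci at 923471 to 930821 (94.0%) and 8331533 to 8338284 (95.1%), of 4 peaks each. The same block stood when peaks were joined at gaps under 1000, 3000 or 5000 bp.

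The score of 191.45 was the second highest of the whole list, below 1 mitochondrial peak (368.39) and above another (188.60). The mitochondrial genome also carried 6 peaks, which spanned 19604 bp, covered 93.3% of that span and scored between 28.45 and 368.39. Distances between the centres of successive gaps were 1042, 1720, 4484 and 1274 bp in the U block, against 5034, 1021, 3879 and 702.5 bp on the mitochondrial genome. These distances were read in coordinate order only and between cuts made by the caller. They do not show whether the U block shares sequence with the mitochondrial genome. Whether the U block holds satellite, ribosomal, transposon or organellar sequence was not tested.

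Of the 20 highest scores of the list, 5 were on U, and 2 of these were in that block. The other 3 were 139.59 at 2605833 to 2606299, 132.31 at 2293397 to 2293953 and 121.86 at 2148944 to 2150373, all in the 3rd Mb of U. The first 2 of these were narrow, at 467 and 557 bp, and each was far from any peak on at least 1 side. Next came 94.06 at 1041868 to 1042756, 889 bp wide and 57451 and 35164 bp from its neighbours. The peak at 9991741 to 9992539 scored 88.75 with a width of 799 bp, and the peak at 8333159 to 8334917 scored 81.09 with a width of 1759 bp. High scores thus occurred in peaks of 467 to 4570 bp, and 4 of the 10 highest on U were narrower than 1000 bp. That is a smaller share than over all of U, where only 224 of 706 peaks (31.7%) were 1000 bp or wider.

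Only 2 peaks were among both the 10 widest and the 10 highest-scoring of U, and both were in the block near 5.30 Mb. Over all 706 peaks, however, width and score rose together, with a Spearman correlation of 0.773. The correlation was 0.598 over the peaks of Uextra, 0.722 over those of the arms and 0.511 over those of the heterochromatin scaffolds. Neighbouring peaks of U less than 1000 bp apart had scores that correlated at 0.328 over 264 pairs. For such neighbours the value was 0.0415 over 2653 pairs on Uextra, 0.613 over 416 on the arms and 0.628 over 55 on the heterochromatin scaffolds. On U, neighbours 5000 bp or more apart correlated at 0.194 over 272 pairs. For such distant neighbours the value was 0.0183 over 1410 pairs on Uextra and -0.000311 over 319 on the arms. It was 0.128 over 56 on the heterochromatin scaffolds. These correlations are across peaks that share 1 list and 1 caller, and they carry no test.

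Scores on U took a limited set of values. The 706 peaks had 272 distinct scores, and 494 of them (70.0%) had a score that at least 15 peaks of the list shared, against 75.3% on Uextra, 18.3% on the heterochromatin scaffolds and 13.1% on the arms. Within U the share was 50% (74 of 148) in the first 6 Mb, 46.3% in the 7th Mb, 82.6% (284 of 344) in the 8th and 9th, and 71.4% (105 of 147) from 9 Mb on. The commonest scores on U were 15.66 and 29.48, with 13 peaks each, and these 2 values occurred 114 and 133 times in the whole list. None of the 6 scores of the block near 5.30 Mb occurred in any other peak. Over all of U, 621 of the 706 peaks (88.0%) shared their score with at least 1 other peak of the list. This was not particular to the block, since 0 of the 6 mitochondrial peaks shared a score either. The classes differ in size, since Uextra holds 8233 of the 9897 peaks, and what part this has in the shares was not tested.

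At the far end of U, the last 4 peaks were 918, 375, 913 and 429 bp wide and scored 34.93, 70.94, 19.07 and 28.89. The last ended at 10033244. The first 4 peaks were 6150, 3110, 384 and 2707 bp wide and scored 70.42, 62.31, 12.51 and 43.70. Measured to the end of the last peak, U carried 70.4 peaks per Mb with 6.34% of its bases in peaks, against 284 per Mb and 15.2% on Uextra, 16.2 per Mb and 0.960% on the heterochromatin scaffolds and 6.81 per Mb and 0.708% on the arms. The last peak end was used in place of the true length of each sequence, and a longer true length would lower these values.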

How the data were processed

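The analysis used 1 deposited peak list for 2 Myc ChIP samples and 1 input sample. Per the file headers, coordinates follow FlyBase release 5, and MACS is named on each line. The submitters' processing notes name CASAVA, BWA, MACS2 and the build BDGP5. The score of each peak, with 2 decimals, was deposited by the authors without its scale, so scores were compared only within the list. Not given in the sources used here are the pooling of ChIP samples, the use of the input, thresholds, the handling of multiply mapping reads and whether the ChIP samples came from separate cultures.

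From the list, widths (end minus start plus 1), gaps, joined loci, runs, autocorrelations in 10 bp bins and shares with exact binomial intervals were computed with pandas 2.3.3, NumPy 2.4.6 and SciPy 1.17.1 in Python 3.11.15, and drawn with Matplotlib 3.10.9. Joining was tried on a small made-up layout with known gaps, and period finding on simulated runs of evenly spaced peaks. No irregular run was simulated, so this does not show that a lag found here is a tandem period. Peaks were placed in parts of U by their midpoints. Items named were the 10 highest scores, the 10 widest peaks, runs, peaks from 5.27 to 5.32 Mb, the ends of U, and, chosen after their values were seen, long gaps, peaks above the width edge and the neighbours of the block near 5.30 Mb. The members and rules were chosen with earlier results of these data known. No test across peaks was made. The gene table at hand follows release 6 and was not used for these coordinates, and no sequence is shown.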

Additional observations from a re-analysis of the deposited data

How the results depend on the processing

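No paired analysis was possible because no peak has a value per sample, which also means that leaving out a replicate could not be tried. Of 49 values under alternatives, 20 stayed within the tolerance set for them and 29 moved. Some of the 20 could not have moved. The lags of the runs already lay above 2000 bp when the search was started there. The highest-scoring block had inner gaps of at most 482 bp and its nearest other peak 52898 bp away, so the joining distances tried could not change it. The tolerance was the 95% interval for shares and medians, which takes peaks as independent although they cluster, 1.5 times for counts and 50 bp for lags. The number of peaks on U was 706, against 336 at scores at or above the median of the list and 204 at or above its upper quartile. In the same 2 settings the median width was 1183.5 and 1397 bp, the median score 36.67 and 41.565, and the share in the 3 densest Mb 83.0 and 77.5%. The share of the list on U was 8.10% at or above the upper quartile. With peaks under 500 bp apart merged, the median width was 937 bp and the median score 28.31. Selecting by score raises the median score by construction, and merging widens peaks.

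Runs depended on their definition. There were 4, with 5.81% of peaks, against 1 (1.13%) with joining under 1000 bp, 12 (18.6%) under 5000 bp, 27 (24.4%) with 5 or more peaks, 1 (1.98%) with 12 or more and 0 (0%) at scores at or above the median. The median distance between neighbouring midpoints, a different measure from the lag, was 833.5, 1865, 365.5 and 2545.25 bp for runs 1 to 4. Run 3 moved from 2400 bp to 1000 bp, the lower limit, when weighted by score. Widened runs 1, 2 and 3 gave 6710, 1000 and 1040 bp, an alternative added after the data were seen. Unknown depth limits every value.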
